A study of Mus musculus with 24 samples.

Results

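Hamp, Dio2 and Il24 are 3 genes that were picked from a lung array study because they rose 1 day after lipopolysaccharide (LPS) in wild type mice but not in Rag-1 null mice. All probes that the platform annotation assigns to them were taken, which gave 4 probes of 24046 on the arrays: 1 for Hamp, 1 for Dio2 and 2 for Il24. The measured day 1 values chose these genes, so every comparison that involves day 1 is given for them as a description without a test. RNA came from whole lung of male C57BL/6 mice aged 6 to 8 weeks. The 8 groups were Rag-1 null mice without LPS (control) and 1, 4 and 10 days after LPS, and wild type mice in the same 4 states, with 3 arrays in each group and 24 in all. Rag-1 null mice cannot rearrange antigen receptor genes and so lack mature T and B cells throughout the body. How LPS was given, at what dose, and whether the arrays of a group came from separate animals is not stated in the labels. The p-values therefore reflect the spread among these arrays alone, and that spread may be technical.

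Hamp encodes hepcidin, a peptide hormone made mostly by hepatocytes that binds the iron exporter ferroportin and causes its removal from the cell surface, which lowers iron release from macrophages and gut. Its transcription is switched on by interleukin 6 through STAT3 and by bone morphogenetic proteins through SMAD factors, and macrophages and other cells can make it during infection. Dio2 encodes type 2 iodothyronine deiodinase, a selenoprotein of the endoplasmic reticulum that turns thyroxine into the active hormone triiodothyronine inside the cell. Its gene is induced by cyclic AMP and its protein is degraded quickly after ubiquitination. Il24 encodes interleukin 24, a cytokine of the interleukin 10 family that signals to epithelial cells through receptors built from interleukin 20 and 22 receptor chains and through STAT3.

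Each array had 9517 to 12125 probes above background, meaning a detection p under 0.05 against the negative controls, and 13544 probes that did so on at least 3 arrays were tested. All 4 probes of the 3 genes passed this filter, and the 3 wild type day 1 arrays alone were enough for each to pass. The number of arrays limits the precision, and levels are given on the log2 scale after background correction and quantile normalization, where the lowest detected probe of an array lay at 4.50 to 4.82. Replicate arrays correlated at 0.966 to 0.992 across probes in 7 groups, and at 0.858, 0.914 and 0.969 in wild type lung at day 1, where replicate 1 stood apart. The genotype differences in day 1 response of the 4 probes are therefore also given without that array. Most other values that rest on it are given only with it. The Rag1 probe lay at 4.45 to 4.94 in Rag-1 null arrays and 4.28 to 4.76 in wild type arrays, near background in both, and checked nothing about the labels. Of 5 tested T cell markers 2, Cd3e and Cd3d, were each lower in all 12 Rag-1 null arrays than in every wild type array. The same held for 2 of 4 tested B cell markers, Cd79b and Fcmr. The remaining markers of both lists did not separate the genotypes in this way. Each group had the same position on all 3 slides, and the effects of position and group cannot be told apart. In whole lung, fewer cells of a type and less RNA per cell cannot be told apart.

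Hamp was brightest in wild type lung 1 day after LPS and dimmer in every other group. Its log2 level on the 3 Rag-1 null arrays was 6.72, 5.38 and 6.92 in control, 4.72, 4.96 and 5.17 at day 1, 5.67, 4.77 and 4.55 at day 4, and 4.79, 5.11 and 5.40 at day 10. The wild type levels were 7.25, 4.63 and 4.53 in control, 8.38, 8.37 and 8.66 at day 1, 4.44, 4.32 and 5.05 at day 4, and 6.52, 6.75 and 6.07 at day 10. All 3 wild type day 1 arrays lay above all 21 others. The wild type control group was split, with replicate 1 well above the other two, and only replicate 1 was above background there. At day 4 replicate 3 was the Rag-1 null array not above background, and in wild type lung replicate 3 was the one array above it. The 2 genotypes did not overlap at day 1, whose values chose the gene, or at day 10, and overlapped in the control state and at day 4. The day 10 difference did not pass the limma test given below (adjusted p = 0.138). With 3 arrays in each group, a lack of overlap alone is not read as a difference.

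Over control, day 1, day 4 and day 10, group means of Hamp were 6.34 ± 0.84, 4.95 ± 0.22, 5.0 ± 0.59 and 5.10 ± 0.31 in Rag-1 null lung (SD, n = 3 arrays in each group). The wild type means over the same states were 5.47 ± 1.54, 8.47 ± 0.16, 4.61 ± 0.39 and 6.45 ± 0.35. Ordered from high to low, wild type day 1 came first, then wild type day 10, Rag-1 null control, wild type control, Rag-1 null day 10, day 4 and day 1, and wild type day 4 last. Wild type day 1 was separated from its neighbour, and no other neighbours in this order differed beyond their spread. The probe was above background on 19 of 24 arrays, including 16 of the 21 outside wild type day 1. At day 1 minus control, the values that chose the gene, Hamp stood at -1.39 ± 0.50 (log2 difference ± SE) in Rag-1 null lung, 2.62-fold lower, and at 3.00 ± 0.50 in wild type lung, 7.98-fold higher than a control group in which 1 of 3 arrays was above background. The difference between these responses was -4.38 ± 0.70, and it was -5.28 without replicate 1 of the wild type controls and -4.43 without replicate 1 of wild type day 1. Array by array within the 3 slides, the day 1 difference was -2.0, -0.41 and -1.75 in Rag-1 null lung and 1.12, 3.74 and 4.12 in wild type lung.

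**Figure D1:**
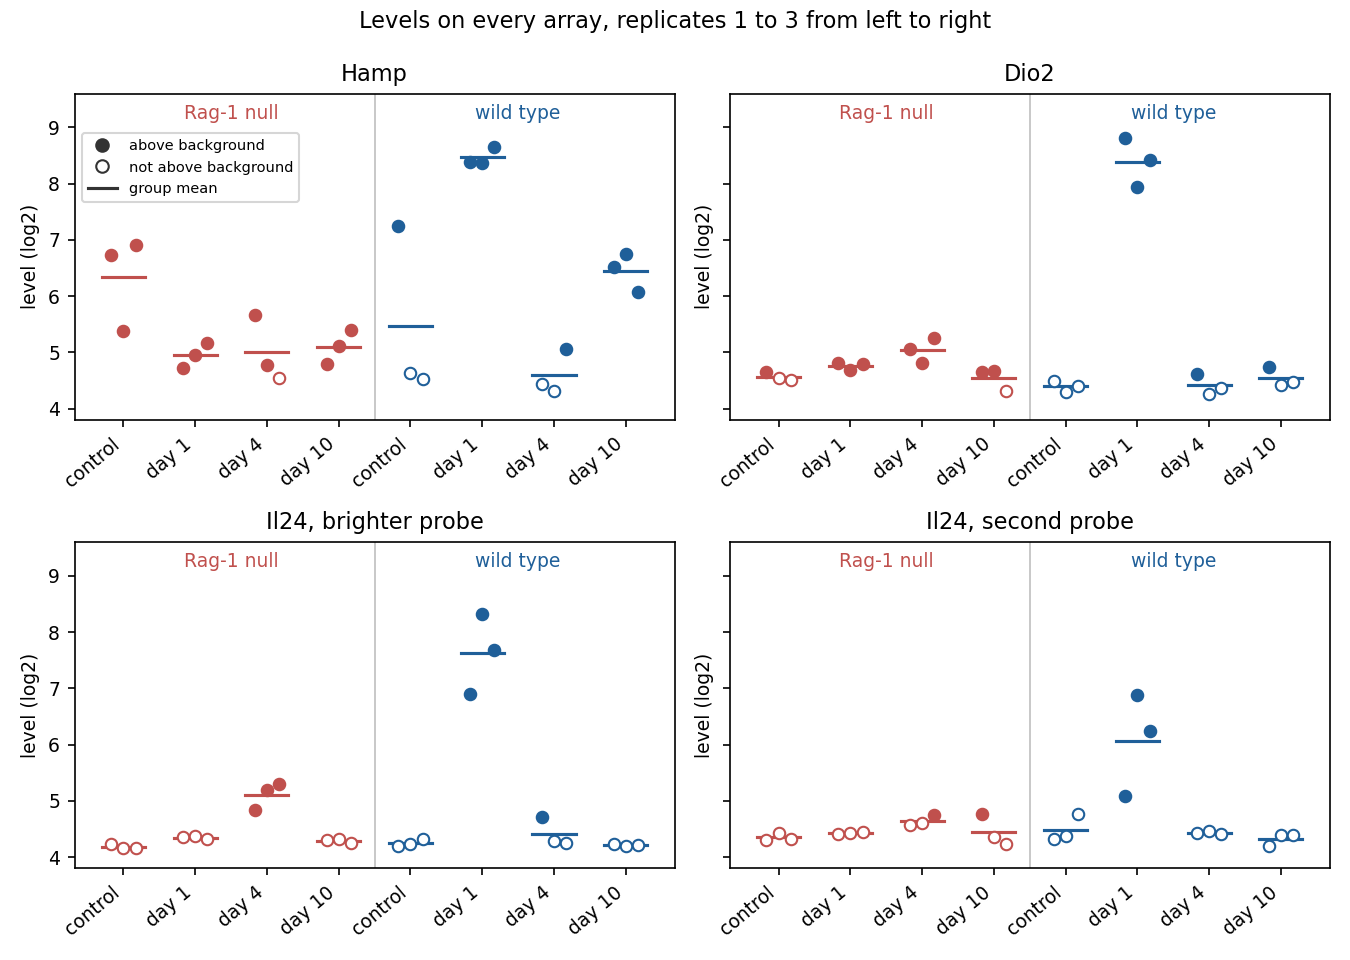
Log2 level (vertical axis) of Hamp, Dio2 and the 2 Il24 probes in each array, by group in the order control, LPS day 1, day 4 and day 10, with Rag-1 null left and wild type right. Filled points are above background, open points are not, and bars mark group means. The 3 wild type day 1 arrays are the highest for every probe, and Hamp alone also varies widely among the other groups, from 4.32 to 7.25.

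Dio2 was at or near background in 7 of the 8 groups and high in wild type lung at day 1. Its log2 level in Rag-1 null lung was 4.66, 4.54 and 4.50 in control, 4.81, 4.69 and 4.80 at day 1, 5.05, 4.81 and 5.26 at day 4, and 4.65, 4.68 and 4.32 at day 10. The wild type arrays read 4.49, 4.30 and 4.40 in control, 8.81, 7.94 and 8.41 at day 1, 4.61, 4.26 and 4.37 at day 4, and 4.73, 4.43 and 4.48 at day 10. The wild type day 1 arrays had raw signals of 431.2, 211.5 and 383.0, and every array of the other groups lay at or below 5.26 on the log2 scale. The Rag-1 null arrays also lay above all wild type arrays in control and at day 4, by less than 1 log2 unit, and the genotypes overlapped at day 10. Neither the control nor the day 4 difference passed its limma test (adjusted p = 0.773 and 0.129). Over control and days 1, 4 and 10, the means were 4.57 ± 0.08, 4.77 ± 0.07, 5.04 ± 0.23 and 4.55 ± 0.20 in Rag-1 null lung (SD, n = 3 each). The wild type means were 4.39 ± 0.09, 8.39 ± 0.43, 4.42 ± 0.18 and 4.55 ± 0.16 in the same order.

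The Dio2 probe was above background on all 3 Rag-1 null arrays at day 1 and at day 4, on 1 in control and on 2 at day 10. Wild type lung had 0, 3, 1 and 1 such arrays in control and at days 1, 4 and 10. From high to low the means ran from wild type day 1 through Rag-1 null day 4, day 1 and control to Rag-1 null and wild type day 10, wild type day 4 and wild type control, and the neighbours overlapped except wild type day 1 with Rag-1 null day 4 and Rag-1 null day 1 with Rag-1 null control. The day 1 difference from control, again a value that chose the gene, was 0.20 ± 0.17 (log2 ± SE) in Rag-1 null lung and 3.99 ± 0.17 in wild type lung. Because no wild type control array was above background, the wild type difference is written as a bound, at least 12.5-fold: the day 1 mean against, on each control array, the higher of the lowest detected signal and the probe's own. The responses differed by -3.79 ± 0.24, and by -3.58 without replicate 1 of wild type day 1. The 3 slides gave -4.17, -3.49 and -3.71 for this difference.

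Il24 was not above background in either control group and was detected on all arrays of 2 groups, Rag-1 null lung at day 4 and wild type lung at day 1. The brighter of its probes read 4.23, 4.17 and 4.16 in Rag-1 null control, 4.36, 4.37 and 4.32 at day 1, 4.83, 5.20 and 5.30 at day 4, and 4.30, 4.33 and 4.26 at day 10. In wild type lung it read 4.20, 4.23 and 4.32 in control, 6.89, 8.32 and 7.69 at day 1, 4.72, 4.29 and 4.26 at day 4, and 4.24, 4.20 and 4.22 at day 10. The wild type day 1 arrays did not overlap any other array, and the lowest of them was replicate 1, the array that stood apart. At day 4 all 3 Rag-1 null arrays and replicate 1 of the wild type arrays were above background, and at day 10 no array was. In all, 7 of 24 arrays were above background for this probe. Means were 4.19 ± 0.04 (SD, n = 3 each), 4.35 ± 0.02, 5.11 ± 0.24 and 4.29 ± 0.03 in Rag-1 null control, day 1, day 4 and day 10, and 4.25 ± 0.07, 7.63 ± 0.71, 4.42 ± 0.26 and 4.22 ± 0.02 in the wild type groups. Wild type day 1 stood clear at the top of this order, Rag-1 null day 4 came next and overlapped no array of the groups ranked after it, and the means of the remaining groups lay between 4.19 and 4.42.

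At day 1 minus control the brighter Il24 probe stood at 0.16 ± 0.21 (log2 ± SE) in Rag-1 null lung, where both groups were below background and no fold is given. Its wild type difference was 3.38 ± 0.21, at least 7.42-fold higher. The difference of the responses was -3.22 ± 0.30, and -3.59 without replicate 1 of wild type day 1. The second Il24 probe was also highest at wild type day 1, with a smaller difference, and its remaining groups ranked differently from those of the brighter probe. It read 5.09, 6.88 and 6.24 in wild type day 1 arrays, and its group means elsewhere lay between 4.32 and 4.64. Its responses were 0.08 ± 0.25 in Rag-1 null lung and 1.58 ± 0.25 in wild type lung, at least 2.51-fold, and they differed by -1.50 ± 0.36, or -1.99 without replicate 1 of wild type day 1. It was above background on 5 of 24 arrays, 2 of them outside wild type day 1, namely replicate 3 of Rag-1 null day 4 and replicate 1 of Rag-1 null day 10. The part of the transcript that each probe reads is not stated in the labels.

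The 3 genes are placed here against all 13544 tested probes. By limma with Benjamini-Hochberg adjustment, 7.75% of probes were higher and 9.13% lower at day 1 than in control in Rag-1 null lung. The wild type figures were 18.1% higher and 21.2% lower. The difference between the responses passed above 0 for 4.19% of probes and below 0 for 4.02%. The pattern for which these genes were picked, a rise in wild type lung that passed, no pass in Rag-1 null lung and a response difference that passed below 0, was met by 391 probes, 2.89% of those tested, and all 4 probes were among them. Ranked by the response difference from the most negative, Hamp was number 1, Dio2 number 2, the brighter Il24 probe number 8 and the second Il24 probe number 110. Ranked by the wild type rise alone, they were numbers 59, 16, 39 and 358. These ranks use the values that chose the genes and describe them only. At day 4 minus day 1 in wild type lung Hamp stood at -3.86 (log2), Dio2 at -3.97 and the brighter Il24 probe at -3.21, with all 3 slides in the same direction. In Rag-1 null lung the same step was 0.05, 0.27 and 0.76.

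**Figure D2:**
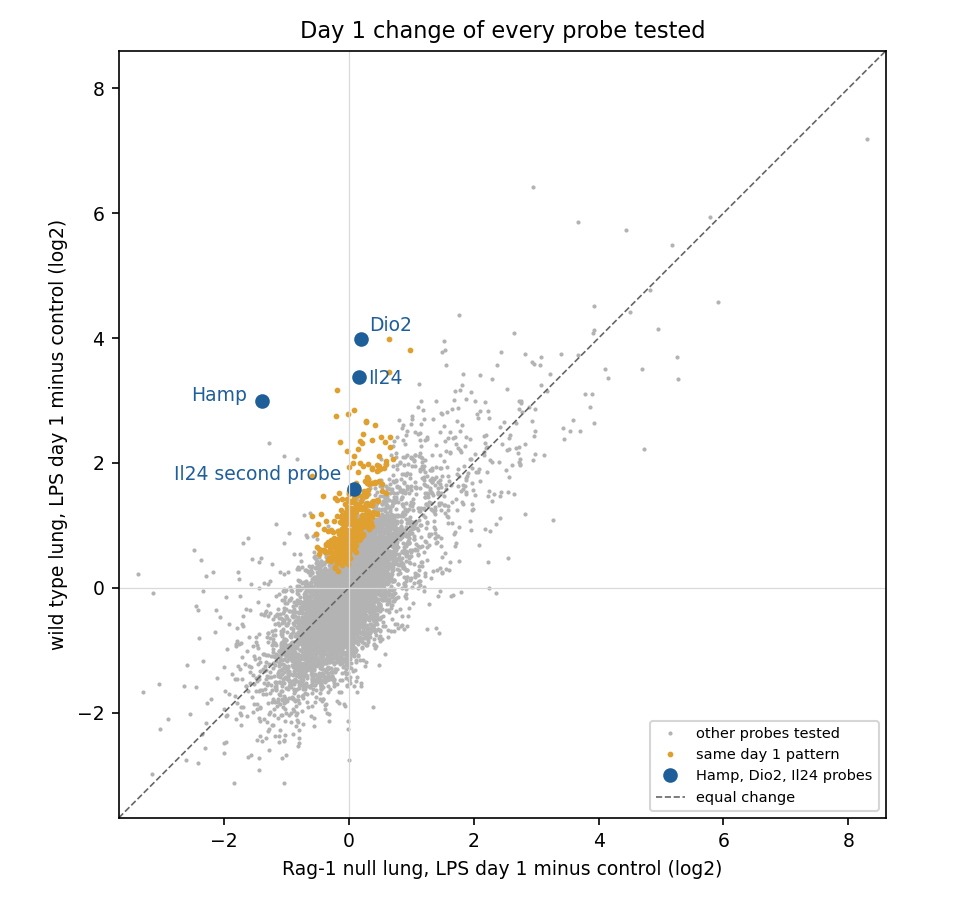
Day 1 minus control (log2 difference) in Rag-1 null lung on the horizontal axis and in wild type lung on the vertical axis for the 13544 tested probes, with the 4 probes of Hamp, Dio2 and Il24 in blue, the others of the 391 with the same day 1 pattern in orange and equal change as a dashed line. Hamp lies at -1.39 and 3.00, while Dio2 and both Il24 probes lie near 0 on the Rag-1 null axis, at 0.20, 0.16 and 0.08.

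Outside day 1 the values did not choose the genes, and 11 comparisons were tested for each of the 4 probes, although those against control share the control arrays with the day 1 values. Of these 44 tests 5 passed an adjusted p under 0.05 in the limma fit over all probes. Outside wild type day 1 the second Il24 probe was above background on 2 of 21 arrays. It therefore passed the detection filter only through the group that chose the gene, and its 11 tests are counted but not read as support. In several Il24 comparisons neither group had an array above background, and a missing pass there says nothing on change. At day 4 in Rag-1 null lung, all 3 genes differed from control. Il24 (brighter probe) was higher at 4.83, 5.20 and 5.30 against 4.23, 4.17 and 4.16 in control, a difference of 0.92 ± 0.21 (SE, adjusted p = 0.00202), at least 1.46-fold and higher on all 3 slides. Dio2 was higher at 5.05, 4.81 and 5.26 against 4.66, 4.54 and 4.50, by 0.47 ± 0.17 or 1.39-fold (adjusted p = 0.0446), with 1 of 3 control arrays above background, and the groups did not overlap. Hamp was lower at 5.67, 4.77 and 4.55 against 6.72, 5.38 and 6.92, by -1.34 ± 0.50 or 2.53-fold (adjusted p = 0.0487), with overlap of 1 array in each group and 2 of 3 day 4 arrays above background. In that comparison 27.2% of all probes passed, so 3 probes of 4 passing stands against a broad change. The second Il24 probe did not pass (0.29, adjusted p = 0.454).

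Neither Dio2 nor Hamp held this day 4 call firmly. Dio2 lost it in 15 of the 24 fits that left out 1 array and Hamp in 17, while Il24 kept it in all 24. In wild type lung at day 4 no probe passed against control, where 23.3% of all probes did: Hamp was at -0.87 (adjusted p = 0.222), Dio2 at 0.02 (0.944) and Il24 at 0.17 (0.615). Il24 then fell to day 10 in Rag-1 null lung, to 4.30, 4.33 and 4.26 after 4.83, 5.20 and 5.30 at day 4, a difference of -0.82 ± 0.21 (adjusted p = 0.0149), at least 1.43-fold lower, in a comparison that 9.66% of probes passed. This call was lost without replicate 2 or replicate 3 of Rag-1 null day 4 (adjusted p = 0.0650 and 0.0927). Dio2 took the same direction at -0.49 (adjusted p = 0.0792), and Hamp was at 0.10 (0.947). The Dio2 difference passed without replicate 1 or replicate 2 of wild type day 1 (0.0213 and 0.0256), arrays that are in neither group compared. It did not pass in 22 of the 24 fits that left out 1 array, with an adjusted p of 0.339 without replicate 3 of Rag-1 null day 4. Hamp in wild type lung was higher at day 10, at 6.52, 6.75 and 6.07, than at day 4, at 4.44, 4.32 and 5.05. The difference was 1.84 ± 0.50 or 3.58-fold (adjusted p = 0.0136), with no overlap and with 1 of 3 day 4 arrays above background, where 15.0% of all probes passed. Leaving out replicate 1 or 2 of wild type day 4 or replicate 2 of wild type day 10 put its adjusted p at 0.0601, 0.0520 and 0.0615.

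The other 39 tests did not pass. Against control at day 10, where 8.87% of probes passed in Rag-1 null lung and 2.05% in wild type lung, Hamp was at -1.24 (adjusted p = 0.146) and 0.97 (0.338). Between genotypes Hamp differed by 0.87 in control lung (adjusted p = 0.50; 1.28% of probes passed), by 0.39 at day 4 (0.914; 0.539% passed) and by -1.35 at day 10 (0.138; 5.52% passed). Its day 10 response differed between genotypes by -2.21 ± 0.70 (adjusted p = 0.119), where 1.52% of probes passed. The Hamp values that involve wild type control turned on 1 array. Without replicate 1 of the wild type controls, the control difference was 1.76 (adjusted p = 0.0172) and the day 10 response difference -3.10 (0.00323). The wild type day 10 difference from control was then 1.87 (0.0123). The Rag-1 null day 10 difference from control and the genotype difference at day 10 then passed too (adjusted p = 0.0172 and 0.0147). That array is in neither of these 2 comparisons, so their values stayed at -1.24 and -1.35 and only the error estimate and adjustment changed. Without replicate 3 of the Rag-1 null controls the first had an adjusted p of 0.440. Without replicate 1 of Rag-1 null day 10 the second had 0.387. For the day 4 response, the difference between genotypes passed for 0% of probes in limma, 1483 having an unadjusted p under 0.05, and Il24 stood at 0.76 (adjusted p = 0.343), Dio2 at 0.45 (0.517) and Hamp at -0.47 (0.871). The Il24 difference passed with the authors' deposited values (1.14, adjusted p = 0.0179) and with array weights (0.87, 0.00935). At day 4 itself Dio2 and Il24 were 0.62 and 0.69 higher in Rag-1 null lung than in wild type lung (adjusted p = 0.129 and 0.186). Without replicate 1 of wild type day 1 those adjusted p-values were 0.0279 and 0.0125. That array is in neither group compared, so the differences stayed the same and only the error estimate and adjustment changed. Each difference did not pass in 22 of the 24 fits that left out 1 array. Without replicate 3 of Rag-1 null day 4 the adjusted p-values were 0.657 and 0.732. Among the 30 tests of Dio2 and Il24 probes that did not pass, no difference exceeded 0.76. These 30 include all 11 tests of the second Il24 probe and comparisons of groups without an array above background.

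Hamp varied more between arrays of 1 group than Dio2 and Il24 did, except in wild type lung at day 1, where it varied less. The SD within groups was 0.70 for Hamp, 0.21 for Dio2 and 0.28 and 0.35 for the brighter and the second Il24 probe. Outside wild type day 1 Hamp varied together with genes of heart and skeletal muscle, among other marker lists. Of 10 listed muscle markers 5 were tested, among them the cardiac actin gene Actc1 and the atrial myosin light chain gene Myl7, and their levels were summed on a linear scale in each array. Over control and days 1, 4 and 10, the Rag-1 null arrays had sums of 512 to 1790, 242 to 375, 170 to 727 and 345 to 1090. The wild type arrays had 1657, 358 and 199 in control, 1754, 221 and 403 at day 1, then 146, 149 and 615 at day 4, and 1411, 1851 and 939 at day 10. Across the 21 arrays outside wild type day 1, the Pearson correlation of Hamp with the log2 of this sum was 0.905, a description across arrays that share groups and slides. Over all 24 arrays it was 0.549, and after group means were taken out 0.719. Muscle was not alone: over the 21 arrays Hamp correlated at 0.892 with adipose, 0.732 with endothelial and fibroblast and 0.710 with hepatocyte marker sums. Neutrophil (-0.712) and monocyte and macrophage sums (-0.600) went the other way. Hepatocyte (0.661) and adipose sums (0.595) stood above muscle over all 24 arrays, and adipose (0.754) also after group means were taken out. Replicate 1 of the wild type controls had both the highest Hamp level and the highest muscle sum of its group, and replicate 3 of wild type day 4 likewise. In the 3 wild type day 1 arrays Hamp was 8.37 to 8.66 while the muscle sum ran from 221 to 1754. In the comparisons outside day 1 where Hamp was called, the sums of the 5 markers overlapped in 1 and not in the other. They were 170 to 727 in Rag-1 null lung at day 4 against 512 to 1790 in control. In wild type lung they were 939 to 1851 at day 10 against 146 to 615 at day 4. The part of muscle RNA in these Hamp differences was not tested.

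**Figure D3:**
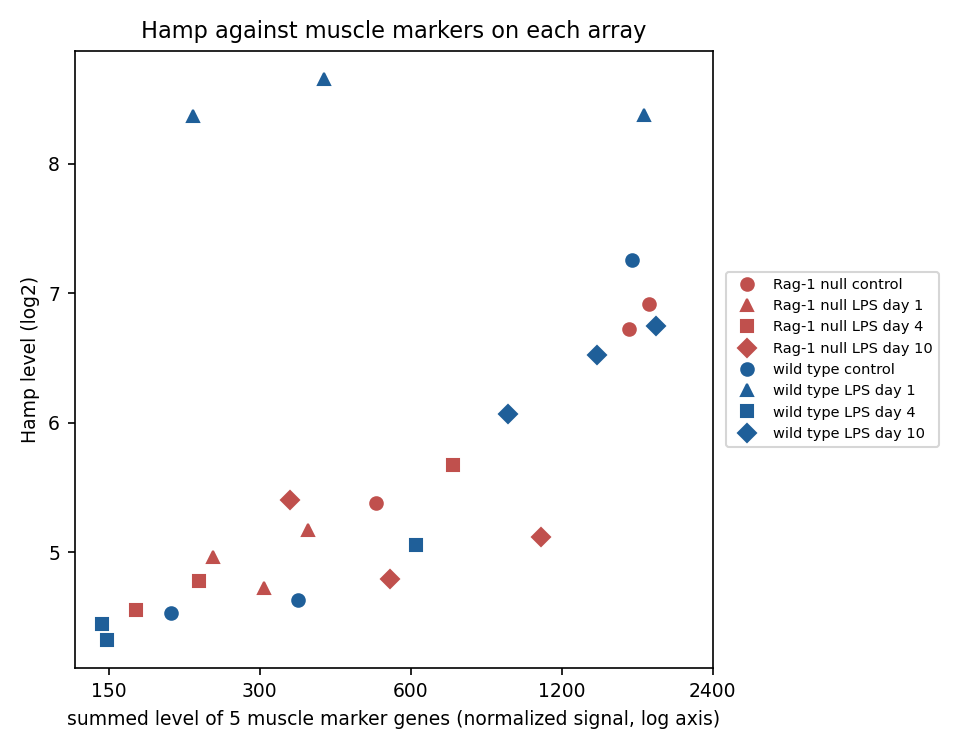
Hamp log2 level (vertical axis) against the summed level of 5 muscle markers (normalized signal, horizontal log axis) on each of the 24 arrays, with colour for genotype and symbol shape for time. Outside wild type day 1 the points rise together (r = 0.905 over 21 arrays), and the 3 wild type day 1 arrays lie above them at 8.37 to 8.66.

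Markers of the other cell types that could carry these transcripts were read beside them. Of 14 hepatocyte markers 7 were tested and none of the arrays had more than 5 above background; their summed level was 165 to 186 in Rag-1 null and 185 to 245 in wild type lung at day 1, against 159 to 216 and 170 to 203 in the controls. The albumin gene had no named probe. Among the 7, Ambp, which encodes the precursor of alpha-1-microglobulin and bikunin and is named after its values were seen, averaged 4.47 ± 0.21 in Rag-1 null and 5.71 ± 0.05 in wild type lung at day 1, against 4.34 ± 0.06 and 4.21 ± 0.03 in the controls (SD, n = 3 each). In wild type lung the day 1 mean was also above the control mean for Apoa1 (4.98 against 4.56) and Apob (4.46 against 4.34), and below it for Fga (4.69 against 5.03), Ahsg (4.62 against 4.73), Cyp2e1 (4.79 against 5.01) and Apoa2 (4.35 against 4.45). The adipose markers Adipoq and Fabp4, 2 tested of 9, summed to 43.0 to 50.1 and 54.5 to 147 at day 1 in Rag-1 null and wild type lung. In the controls they summed to 48.4 to 143 and 44.8 to 165, so the wild type day 1 sums lay within their control range. The adipose sum correlated with Hamp at 0.892 over the 21 arrays. The squamous markers, 2 tested of 11, were at 49.3 to 54.6 in Rag-1 null and 45.8 to 60.4 in wild type lung at day 1, and overlapped where Il24 and Dio2 did not. Their control sums were 52.1 to 71.8 and 42 to 58.3. The 11 tested neutrophil markers summed to 11200 to 13900 in Rag-1 null and 6260 to 15400 in wild type lung at day 1, against 1480 to 1660 and 918 to 8440 in control. The 8 tested monocyte and macrophage markers summed to 2130 to 2350 in Rag-1 null lung at day 1, above the 1240 to 1520 of wild type lung, against 614 to 652 and 563 to 661 in control. All 10 listed lung epithelial markers were tested and at least 8 were above background on every array, with sums of 27400 to 35800 in Rag-1 null and 38100 to 40200 in wild type lung at day 1. The epithelial sums in control were 48400 to 49100 and 45400 to 46900. The part of cell composition in the day 1 differences of Hamp, Dio2 and Il24 was not tested.

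Correlations among the 3 genes were lower once the wild type day 1 arrays were left out, least so for Dio2 and Il24. Over 24 arrays Dio2 and Il24 correlated at 0.94, Hamp and Dio2 at 0.74 and Hamp and Il24 at 0.66, and over the 21 arrays outside wild type day 1 at 0.72, -0.10 and -0.41. The 2 Il24 probes correlated at 0.94 and, outside wild type day 1, at 0.56. The nearest named genes were taken by Pearson correlation over all 24 arrays. These include the wild type day 1 arrays whose values chose the 3 genes, and a high correlation can rest on those arrays alone. The 5 with the pattern most like Hamp were Tmem45b (0.94), Crygn (0.90), Dnaja2 (0.89), Art3 (0.88) and Cfap69 (0.87). For Dio2 they were Sprr2e and Sprr2d, small proline-rich proteins of the epithelial cornified envelope, with Il19, Fbxw10 and Fap, a fibroblast surface protease, at 0.97 to 0.98. For the brighter Il24 probe they were Sdcbp2, the interferon-induced gene Mx2, Azi2, Rasd1 and Fosl1, a member of the AP-1 family, also at 0.97 to 0.98. For the second Il24 probe they were Mx1, Ssh1, Oasl1, Tmem252 and Dbn1, at 0.94 to 0.95. At day 1 minus control Crygn, with the smallest wild type value of these neighbours, stood at -0.27 in Rag-1 null lung and 0.52 in wild type lung, and Mx2, with the largest, at 0.64 and 3.98.

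Hamp lies at chr7:30942368-30944029 in GRCm38.p6, and its paralog Hamp2, a second mouse hepcidin gene, lies at chr7:30922372-30924181, 18186 bases away. The Hamp2 probe stayed at 4.32 to 5.0 in all 24 arrays and was above background on 7. At day 1 minus control it was at -0.13 in Rag-1 null lung (adjusted p = 0.591) and 0.14 in wild type lung (0.413), and the responses differed by -0.28 (0.415), so the Hamp pattern was not detectable at its probe. The promoter windows of both genes are shown because their probes read differently at day 1. Each window holds 250 bases before and 50 bases after the gene start as RefSeq gives them for GRCm38.p6, both on the minus strand, and capitals mark motif matches. They span chr7:30943980-30944279 for Hamp and chr7:30924132-30924431 for Hamp2.
Hamp: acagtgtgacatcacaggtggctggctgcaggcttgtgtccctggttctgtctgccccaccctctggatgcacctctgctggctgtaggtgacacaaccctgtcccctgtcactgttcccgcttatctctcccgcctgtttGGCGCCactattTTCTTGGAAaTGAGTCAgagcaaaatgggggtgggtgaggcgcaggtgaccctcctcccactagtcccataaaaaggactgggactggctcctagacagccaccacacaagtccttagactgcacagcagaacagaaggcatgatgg
Hamp2: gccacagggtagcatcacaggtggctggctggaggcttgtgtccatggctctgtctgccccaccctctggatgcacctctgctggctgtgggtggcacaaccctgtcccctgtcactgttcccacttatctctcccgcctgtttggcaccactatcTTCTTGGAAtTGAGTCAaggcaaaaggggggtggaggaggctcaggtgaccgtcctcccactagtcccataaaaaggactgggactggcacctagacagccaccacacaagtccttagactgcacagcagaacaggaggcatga
In the Hamp window the BMP response element GGCGCC starts 109 bases before the gene start, the STAT element TTCNNNGAA 97 bases before it, as TTCTTGGAA, and the AP-1 element TGANTCA 87 bases before it, as TGAGTCA. The Hamp2 window has the same STAT and AP-1 matches, at 94 and 84 bases, and no GGCGCC. Both strands were searched, and of 32851 RefSeq windows of this length 8.30% hold TTCNNNGAA, 11.9% GGCGCC and 7.81% TGANTCA. A match is a string of letters in a window and says nothing on whether a factor was bound in these lungs.

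Dio2 lies at chr12:90724552-90739038, and its window is shown for the cyclic AMP response element through which the gene is known to be induced. It spans chr12:90738989-90739288 on the minus strand, with matches in capitals as above.
Dio2: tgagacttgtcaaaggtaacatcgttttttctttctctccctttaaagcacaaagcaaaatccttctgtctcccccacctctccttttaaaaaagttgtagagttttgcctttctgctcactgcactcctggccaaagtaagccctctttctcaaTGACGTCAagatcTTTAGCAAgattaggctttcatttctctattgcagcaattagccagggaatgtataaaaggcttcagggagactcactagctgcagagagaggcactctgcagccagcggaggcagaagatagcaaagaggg
The element TGACGTCA starts 95 bases before the gene start, and 1.79% of all windows hold it. A C/EBP element, TTGCNNAA, lies on the other strand 82 bases before the start, where the printed strand reads TTTAGCAA, and 10.8% of windows hold that motif. The short core TGACG, held by 20.8% of windows, matches only inside the full element. The Dio2 window held none of the STAT, BMP and AP-1 elements spelled out for Hamp. It also held no NF-kB element GGNNNTTCC, which 18.5% of windows hold, and no E-box CACGTG, which 7.15% hold.

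Il24 lies at chr1:130882074-130887411, at one end of a cluster of interleukin 10 family genes in which Il20 follows 19573 bases away, Il19 45244 bases and Il10 132433 bases. The RefSeq windows held none for Il24, so its promoter was not searched for motifs. Il20 had no named probe. Il19 was above background on the 3 wild type day 1 arrays and on none of the 21 others, and Il10 on the same 3 and 1 more. Il19, a cytokine made by activated monocytes and epithelial cells, averaged 4.21 ± 0.05 in Rag-1 null lung at day 1 and 4.24 ± 0.05 in control (SD, n = 3 each), against 5.36 ± 0.12 and 4.22 ± 0.02 in wild type lung. Its day 1 difference was -0.03 in Rag-1 null lung and 1.14 in wild type lung, at least 1.53-fold. Il10, the anti-inflammatory cytokine that names the family, averaged 4.36 ± 0.06 at day 1 and 4.29 ± 0.09 in control in Rag-1 null lung, against 5.11 ± 0.44 and 4.36 ± 0.02 in wild type lung. It was at 0.07 in Rag-1 null lung and 0.75 in wild type lung, at least 1.29-fold. Both probes passed the detection filter only through the wild type day 1 arrays, so their test is taken from the limma fit of all 24046 probes without that filter. There the responses differed by -1.17 for Il19 (adjusted p = 1.36e-09) and by -0.68 for Il10 (adjusted p = 0.0356), and the Il10 call was lost in 7 of the 24 fits of filtered probes that left out 1 array.

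Genes that work with the 3 members were read from 9 lists, of which 85 of 119 listed genes were tested. Over all of them, 21 were higher and 5 lower at day 1 in Rag-1 null lung and 29 higher and 16 lower in wild type lung, with medians of 0.07 and 0.21 against -0.03 and -0.03 over all 9605 genes. These counts stand against 7.75% of all probes higher and 9.13% lower in Rag-1 null lung, and 18.1% higher and 21.2% lower in wild type lung. The responses differed between genotypes for 8, 4 in each direction, a share close to the background of 4.19% and 4.02% given above, and 2 of these 8, Il19 and Il10, passed the detection filter only through wild type day 1. The median response difference was -0.11 over the lists and 0.00 over all genes.

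In the interleukin 6 and STAT3 arm that acts on Hamp, 5 of 9 genes rose in each genotype and none fell, with a median of 0.53 in Rag-1 null lung and 0.71 in wild type lung. Over all probes 7.75% rose and 9.13% fell in Rag-1 null lung, and 18.1% rose and 21.2% fell in wild type lung. None of the 9 differed in response between genotypes. Socs3, the feedback inhibitor induced by STAT3, rose 7.41-fold in Rag-1 null lung (2.89 ± 0.35 log2, limma adjusted p = 2.97e-06) and 7.47-fold in wild type lung (2.90 ± 0.35, adjusted p = 8.84e-07), and the responses differed by -0.01 (0.995). Jak2, a kinase of the receptor complex, rose by 1.20 ± 0.19 and 1.78 ± 0.19 (adjusted p = 1.12e-04 in Rag-1 null and 2.44e-07 in wild type lung). Il6 itself rose at least 3.09-fold in Rag-1 null lung (adjusted p = 0.00814) and at least 8.01-fold in wild type lung (4.92e-06), and the difference of -1.59 ± 0.66 did not pass (0.154). At day 4 Il6 was still at least 3.76-fold above control in Rag-1 null lung (adjusted p = 0.00147), while in wild type lung it was at 0.57 (0.416).

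Of the 18 tested genes of the bone morphogenetic protein arm, 1 rose and 3 fell in Rag-1 null lung and 3 rose and 5 fell in wild type lung, the wild type counts lying near the 18.1% and 21.2% of all probes. Bmp6, the ligand that couples hepcidin to iron stores, averaged 6.08 ± 0.20 at day 1 and 6.76 ± 0.28 in control in Rag-1 null lung, against 4.80 ± 0.47 and 6.50 ± 0.38 in wild type lung (SD, n = 3 each). It fell 1.59-fold in Rag-1 null lung (adjusted p = 0.0391) and 3.27-fold in wild type lung (2.47e-06), and the responses differed by 1.03 ± 0.31 (0.0444), opposite to Hamp. That difference lost its call in 16 of the 24 fits that left out 1 array. Among 19 genes of iron transport and storage, 7 rose and 0 fell in Rag-1 null lung and 6 rose and 3 fell in wild type lung. Of all probes, 7.75% rose and 9.13% fell in Rag-1 null lung, and 18.1% rose and 21.2% fell in wild type lung. Lcn2, which binds bacterial iron chelators, rose 22.8-fold in Rag-1 null lung (adjusted p = 1.19e-09) and 21.5-fold in wild type lung (2.70e-10), with responses 0.09 apart (0.936). Hpx, which carries heme, and Hp, which carries free hemoglobin, rose 2.76-fold (adjusted p = 2.04e-05) and 2.18-fold (1.65e-05) in Rag-1 null lung. In wild type lung they were at 0.31 (0.244) and 0.35 (0.0778), and the responses differed by 1.15 ± 0.29 (0.0160) and 0.78 ± 0.22 (0.0311). Leaving out 1 array, the Hpx difference lost its call in 2 of 24 fits and the Hp difference in 9. Slc40a1, the ferroportin gene and target of hepcidin, named after its values were seen, was above background on all 24 arrays and stood at 0.54 (0.139) in Rag-1 null and 0.03 (0.944) in wild type lung.

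**Figure D4:**
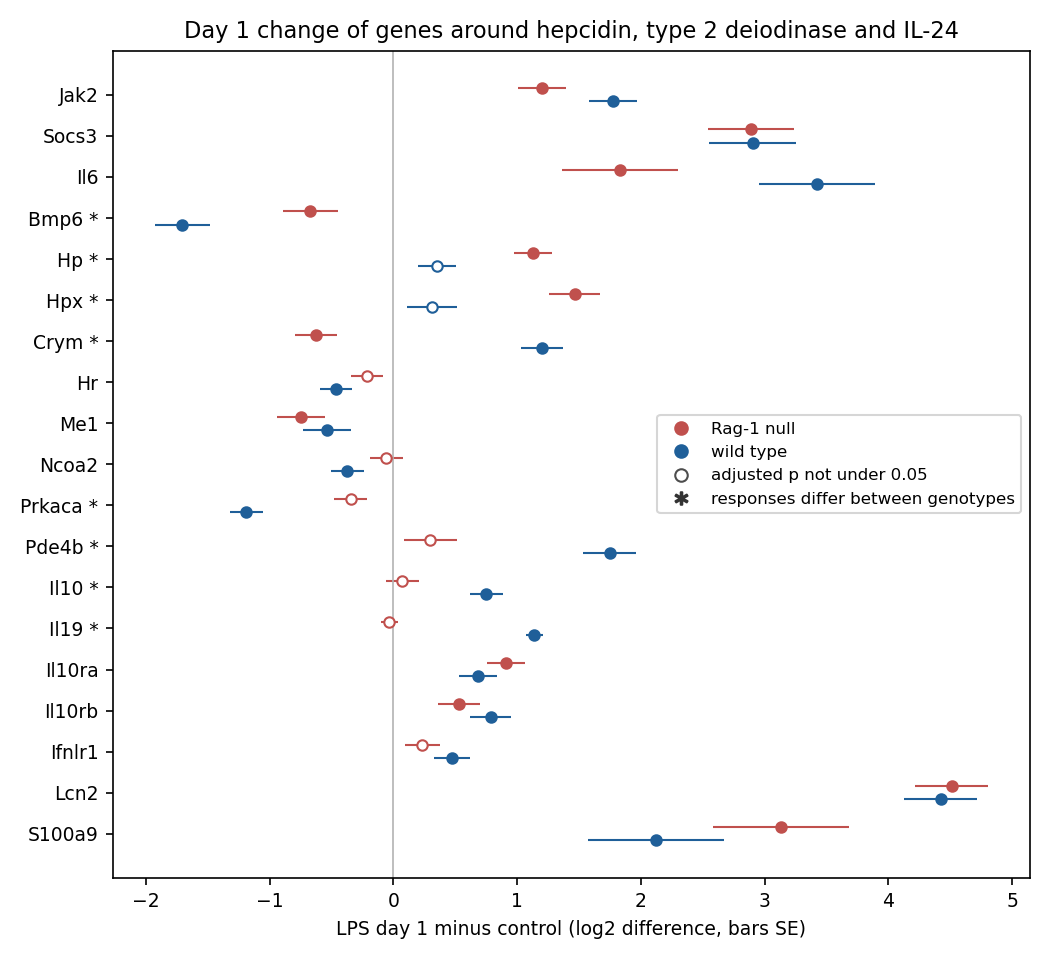
Day 1 minus control (log2 difference ± SE from limma, horizontal axis) of the named genes of the 9 lists in Rag-1 null lung and in wild type lung, with open points where the adjusted p is not under 0.05. A star marks genes whose responses differ between genotypes. Socs3 and Lcn2 rise in both genotypes, with responses -0.01 and 0.09 apart, while Crym, Pde4b, Il10 and Il19 stand higher in wild type lung and Bmp6, Hp, Hpx and Prkaca higher in Rag-1 null lung.

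In the lists around Dio2, 1 of 5 tested carriers and transporters of thyroid hormone rose and 1 fell in Rag-1 null lung, and 3 rose in wild type lung. Crym, which binds triiodothyronine in the cytosol, averaged 4.79 ± 0.06 at day 1 and 5.41 ± 0.10 in control in Rag-1 null lung, against 6.52 ± 0.22 and 5.31 ± 0.37 in wild type lung (SD, n = 3 each). It fell 1.55-fold in Rag-1 null lung (adjusted p = 0.0128) and rose 2.30-fold in wild type lung (8.09e-06), and the responses differed by -1.83 ± 0.24 (6.52e-05), the largest size among the listed genes that passed. The genes of Dio1, the liver and thyroid deiodinase, and Dio3, which inactivates the hormone, had no named probe. Of 10 tested receptors, cofactors and targets of the hormone, 0 rose and 1 fell in Rag-1 null lung and 0 rose and 3 fell in wild type lung, with 7.75% and 9.13% of all probes higher and lower in Rag-1 null lung and 18.1% and 21.2% in wild type lung. Those that fell included Me1, the cytosolic malic enzyme, by 0.74 in Rag-1 null lung (adjusted p = 0.00932) and by 0.53 in wild type lung (0.0330). Hr, a corepressor of the receptor, fell by 0.47 (0.00669) and Ncoa2, a coactivator, by 0.37 (0.0297) in wild type lung, and stood at -0.21 (0.316) and -0.06 (0.855) in Rag-1 null lung.

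Of 12 genes for Dio2 turnover, selenoprotein synthesis and cyclic AMP signalling, 2 rose and 0 fell in Rag-1 null lung and 5 rose and 3 fell in wild type lung. Over all probes 7.75% rose and 9.13% fell in Rag-1 null lung, and 18.1% rose and 21.2% fell in wild type lung. The number that fell in wild type lung was near that share. Pde4b, a phosphodiesterase that degrades cyclic AMP, averaged 5.40 ± 0.33 at day 1 and 5.10 ± 0.10 in control in Rag-1 null lung, against 6.31 ± 0.24 and 4.57 ± 0.15 in wild type lung (SD, n = 3 each). It was at 0.30 in Rag-1 null lung (adjusted p = 0.404) and rose at least 2.97-fold in wild type lung (1.01e-06), and the responses differed by -1.45 ± 0.30 (0.00388). Prkaca, the catalytic subunit of the cyclic AMP-dependent kinase, was at -0.35 in Rag-1 null lung (0.0779) and fell 2.28-fold in wild type lung (3.31e-07), and the responses differed by 0.84 ± 0.19 (0.00686).

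In the lists around Il24, the measured cytokines Il19 and Il10 are described above. Of 4 tested receptor chains, 2 rose in Rag-1 null lung and 3 in wild type lung, and none differed in response. Il10ra and Il10rb, the 2 chains of the interleukin 10 receptor, rose by 0.91 and 0.53 in Rag-1 null lung (adjusted p = 1.90e-04 and 0.0310) and by 0.68 and 0.79 in wild type lung (0.00121 and 6.88e-04). Ifnlr1, the interferon lambda receptor, rose by 0.47 in wild type lung (0.0114) and stood at 0.23 in Rag-1 null lung (0.312). Il20ra, a chain of the receptor for interleukin 24, named after its values were seen, stood at 0.01 in Rag-1 null lung (0.988) and 0.29 in wild type lung (0.156). Of 10 tested signalling genes and epithelial targets, 6 rose and 0 fell in Rag-1 null lung and 6 rose and 2 fell in wild type lung, and none differed in response. The counts of both lists stand beside 7.75% of all probes higher and 9.13% lower in Rag-1 null lung, and 18.1% and 21.2% in wild type lung. S100a9, an antimicrobial protein that neutrophils also carry, rose by 3.13 ± 0.55 in Rag-1 null lung (2.59e-04) and by 2.12 ± 0.55 in wild type lung (0.00368). The neutrophil marker sums given above lay higher than control on every Rag-1 null day 1 array and overlapped control in wild type lung. S100a9 is itself among the markers in those sums, so they are not a separate reading beside it.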

How the data were processed

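Whole lung RNA was hybridised to 1-colour Illumina bead arrays, 24 in all. The authors deposited, per the file headers, an intensity signal for each probe, not normalized, with a detection score given as a fraction, read here as 1 minus the detection p-value, and a table of normalized log2 values. The title line of the deposited signal files names another sample for 22 of 24 arrays, so arrays were tied to samples by identity with the deposited log2 table over 13029 probes (largest difference 5.43e-04; every other array differed by at least 1.42 at some probe). In R 4.3.3 with limma 3.58.1 and statmod 1.5.0, signals were background-corrected from the detection p-values with an offset of 16, then quantile normalized and log2 transformed. Probes with a detection p under 0.05 on at least 3 arrays were kept, and 1 linear model with 8 group means was fitted by limma with Benjamini-Hochberg adjustment over all 13544 probes, at a threshold of 0.05. Besides the 3 members, the genes named were those of each pathway list whose day 1 responses passed between genotypes, otherwise up to 3 per list with the smallest adjusted p at day 1, the 5 nearest genes of each member probe by correlation, and paralogs and cluster neighbours with a probe. The members and lists were chosen with earlier results of these data known. The 3 slides carry the replicate numbers, 1 array of every group each. Same-numbered arrays did not deviate together (r of -0.49 to 0.37 over 84 pairs of arrays with the same number, median 0.06, 32 above 0.1), so the numbers were not used as pairs. The fit was tested on simulated data. Promoter windows and positions came from RefSeq tables for GRCm38.p6. Alternatives covered background correction, normalization, the probe filter, array weights, the samples fitted, the slide and each array left out.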

Additional observations from a re-analysis of the deposited data

Results flagged for a closer look

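Of the 85 tested genes in the pathway lists, 8 had day 1 responses that differed between genotypes in the limma test of the difference (log2, Rag-1 null minus wild type, n = 3 arrays per group). Over all tested probes 4.19% passed above 0 and 4.02% below 0, so the share in the lists was close to the background. The difference was 1.03 for Bmp6 (adjusted p = 0.0444), 0.78 for Hp (0.0311), 1.15 for Hpx (0.0160) and 0.84 for Prkaca (0.00686). It was -1.83 for Crym (6.52e-05), -1.45 for Pde4b (0.00388), -0.68 for Il10 (0.0305) and -1.17 for Il19 (1.14e-07). All 3 slides had the same direction for each of these 8 genes. Same-numbered arrays were not used as pairs, so slide counts here and above describe the arrays and add no support to the tests. Il10 and Il19 passed the detection filter only through the wild type day 1 arrays, and without that filter their adjusted p-values were 0.0356 and 1.36e-09. Hamp stood at -4.38, with lower values after LPS on all 3 slides of Rag-1 null lung and higher values on all 3 slides of wild type lung. That difference was not tested, since it chose the gene.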

How the results depend on the processing

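No called value changed direction under the 12 other settings or the 24 fits that left out 1 array. With no background correction the day 1 response differences were -3.13 for Hamp, -2.77 for Dio2, -2.12 for Il24 and -0.90 for its second probe, and with the authors' deposited values -3.59, -3.02, -2.27 and -0.90. Leaving out 1 array gave -5.28 to -3.91, -4.01 to -3.58, -3.59 to -2.87 and -1.99 to -1.10. Of the 44 tests outside day 1, 5 passed, against 2 with no background correction, 3 with cyclic loess, 3 with no detection filter, 8 with only the compared arrays, 12 with array weights and 2 to 10 with 1 array left out. Among listed genes at day 1, 26 passed in Rag-1 null lung, 45 in wild type lung and 8 between genotypes. With only the compared arrays these counts were 47, 21 and 5, with array weights 46 passed in Rag-1 null lung and 16 between genotypes, with arrays only centred 5 between genotypes, and with 1 array left out the ranges were 17 to 37, 38 to 44 and 4 to 14.

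With the slide as a replicate block the day 1 response differences were unchanged at -4.38, -3.79, -3.22 and -1.50. In that fit 6 of the 44 tests passed, Dio2 at day 10 minus day 4 in Rag-1 null lung being added (adjusted p = 0.0419), and the listed genes passing numbered 27, 43 and 9.

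Il24 at day 4 in Rag-1 null lung passed in all 36 fits (highest adjusted p = 0.0159). The call for Hamp there was lost in 17 and for Dio2 in 15 of the 24 fits with 1 array left out, and each in 5 of 12 settings. Il24 at day 10 minus day 4 was also lost with no background correction (adjusted p = 0.0764). Crym, Prkaca, Pde4b and Il19 passed between genotypes in every fit that held them, while Bmp6, Hp, Hpx and Il10 were lost in 6, 5, 1 and 5 of the settings and in 16, 9, 2 and 7 of the fits with 1 array left out. Over all probes, 1112 day 1 response differences passed, against 506 with only the compared arrays, 2497 with array weights and 2311 without replicate 1 of wild type day 1. For the day 4 response 0 passed, against 1807 with arrays only centred. Il24, Dio2 and, in part, Hamp lie near background outside wild type day 1, so smaller differences there were not detectable on these arrays.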
